A study of Mus musculus with 6 samples.

Results

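Calcium enters the cytoplasm of lymphocytes through surface and store-release channels and is read by EF-hand proteins. The best known of these is calmodulin, which switches on kinases of the CaMK group and the phosphatase calcineurin. Small peptides with an IQ motif, such as PEP-19 (Pcp4) and neurogranin (Nrgn), bind calmodulin and change how it takes up and releases calcium, while neuronal calcium sensors such as NCS-1 (Ncs1) are membrane-attached EF-hand proteins best studied in neurons. The 8 genes described here are Pcp4, its paralogue Pcp4l1, Nrgn, Ncs1, Calm3 and the kinase genes Camk4, Camk1d and Camk2d. They are 8 of 19938 genes with a probe set that the annotation gives to exactly 1 gene, and each of the 8 has 1 such probe set. The members were chosen by their measured log2 differences between the groups studied here, Pcp4 as the largest rise and Ncs1 as a large fall, together with related genes, so their own differences are given below as a description, with an error and no test.

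Expression was measured on 6 Affymetrix arrays, 1 per sample, of pre-B cells of the mouse that carry BCR-ABL1, the tyrosine kinase fusion behind Philadelphia chromosome-positive acute lymphoblastic leukaemia. In 3 samples the cells were transduced with Cre-ERT2, a recombinase that 4OHT (4-hydroxytamoxifen) activates, and in 3 samples with ERT2, its hormone-binding part without a recombinase. All 6 samples share the Sox4fl/fl genotype, the 129SvEv x C57BL/6J background, the age of 5 weeks and the BCR-ABL1 oncogene, and RNA was taken 24 h after 4OHT. The labels name no sample that was spared 4OHT, no Cre-ERT2 sample with unfloxed Sox4, and no vector or promoter, and they do not say whether samples of a group came from separate mice or cultures. Loss of Sox4 and activity of Cre therefore cannot be told apart, and the errors and p-values cover no more than the spread among these samples, part of which may be technical. In bulk RNA, fewer cells of a kind and less RNA per cell also cannot be told apart.

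Values are intensities on a linear scale after RMA, and differences are between mean log2(intensity + 1) values, Cre-ERT2 minus ERT2. The 6 array medians were 273 to 279, and precision is limited by how few arrays there are. Sox4, the targeted gene, had 40.3% of the ERT2 mean in the Cre-ERT2 samples, with a difference of -1.31 (SE 0.0912, limma adjusted p = 0.000434, exact two-sided permutation p = 0.1, the smallest that 3 against 3 can give). All 7 measured B-cell precursor markers were present in both groups, with mean intensities of at least 2361 in Cre-ERT2 and 2299 in ERT2 cells. By limma 0 of the 7 passed in either direction (1 at an unadjusted p under 0.05). That 1 was Pax5, with 5386 in Cre-ERT2 and 6266 in ERT2 samples (difference -0.22, SE 0.0488, limma adjusted p = 0.0552). Summed over the 7, intensity was 66360 to 67750 in Cre-ERT2 and 68420 to 68940 in ERT2 samples, so it was slightly lower in every Cre-ERT2 sample.

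Pcp4 showed the largest rise of all genes. Its protein is a calmodulin-binding peptide first known from Purkinje cells. The probe set (10437205) read 7019, 7153 and 7512 in the Cre-ERT2 samples, against 515, 571 and 527 in the ERT2 samples. Every Cre-ERT2 array was far above every ERT2 array, and the readings within each group lay close together. The Cre-ERT2 mean of 7228 ± 255 (SD, n = 3) was 13.4 times the ERT2 mean of 538 ± 29.7 (SD, n = 3), a log2 difference of 3.75 (SE 0.0595), which ranked 1 among all rises.

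Ncs1 moved the other way. Its protein activates a phosphatidylinositol 4-kinase and regulates calcium channels and receptors in neurons. Its probe set (10471129) read 150, 169 and 121 in the Cre-ERT2 samples, against 1264, 1240 and 1016 in the ERT2 samples. The groups did not overlap, although replicate 3 was the lowest array of each. The Cre-ERT2 mean of 147 ± 24.2 (SD, n = 3) was 12.5% of the ERT2 mean of 1173 ± 137 (SD, n = 3), a log2 difference of -3.0 (SE 0.141), the widest error among the 8 genes, and it ranked 8 among all falls. The Cre-ERT2 readings lay below the lowest array median of 273, and since the table gives no background level they are not shown to be above background, so the ratio, difference and rank may understate the fall.

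The stretches of 250 bases just before the annotated starts of these 2 genes are shown because they are the start regions of the largest rise and the largest fall among the 8. They are the strand of the gene, read 5′ to 3′ from RefSeq on GRCm38.p6, at chr16:96467356-96467605 (plus strand) for Pcp4 and chr2:31245673-31245922 (plus strand) for Ncs1. Capitals mark the Sox core ACAAT on either strand, here in its reverse form.
Pcp4: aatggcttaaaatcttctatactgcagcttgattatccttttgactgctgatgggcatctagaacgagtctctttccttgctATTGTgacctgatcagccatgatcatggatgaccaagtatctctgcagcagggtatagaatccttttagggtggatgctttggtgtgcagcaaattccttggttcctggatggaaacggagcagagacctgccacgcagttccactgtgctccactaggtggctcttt
Ncs1: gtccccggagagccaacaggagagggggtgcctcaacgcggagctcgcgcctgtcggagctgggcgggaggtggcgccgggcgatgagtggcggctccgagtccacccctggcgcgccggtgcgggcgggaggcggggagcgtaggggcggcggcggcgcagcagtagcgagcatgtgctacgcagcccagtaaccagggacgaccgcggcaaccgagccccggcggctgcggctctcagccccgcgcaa

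The 2 windows differ in base composition. The Pcp4 window was 46.8% G and C with 3 CpG dinucleotides, and the Ncs1 window was 75.6% G and C with 34, beside medians of 52.4% and 6 over 32851 promoter entries. Only 3.53% of all entries had at least as many CpG as Ncs1, and 37.8% had no more than Pcp4. Windows were searched on both strands for ACAAAG and ACAAT, cores of the HMG-box motif that Sox proteins recognise. Matches were allowed to share letters. The Pcp4 window held 1 match to ACAAT, which began 168 bases before the start, and the Ncs1 window held 0 of either. Over all entries 16.5% held ACAAAG, 27.7% ACAAT and 38.8% at least 1 of the 2, so a match is common. In the 8 entries of 7 members, that match in Pcp4 was the only one. Camk4 was left out of this count. It is a match of letters and not a measured binding site, and no match says only that these letters are not in the window.

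The other IQ-motif peptides did not follow Pcp4. Pcp4l1, the paralogue of Pcp4 with the same kind of IQ motif, read 169, 182 and 181 in the Cre-ERT2 samples, against 211, 240 and 224 in the ERT2 samples. The Cre-ERT2 arrays were all lower, but by a margin not far above the spread. The log2 difference was -0.34 (SE 0.0651), opposite in sign to that of Pcp4. Nrgn, which encodes neurogranin, a binder of calcium-free calmodulin at synapses, read 272.5, 209 and 220 in the Cre-ERT2 samples, against 267, 227 and 258 in the ERT2 samples. Its groups overlapped, with the highest of all 6 readings in Cre-ERT2 replicate 1, and its difference of -0.11 (SE 0.116) was smaller than its error. Both genes read below the lowest array median on every array.

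Calm3, one of the genes that encode the same calmodulin protein, did not separate the groups. It read 4453, 4189 and 4245 in the Cre-ERT2 samples, against 4495, 4379 and 4093 in the ERT2 samples. The highest and the lowest of the 6 readings both belonged to ERT2 samples. The difference was -0.01 (SE 0.0565), and its sign turned in 3 of 17 alternative settings, where it ran from -0.05 to 0.02.

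The 3 kinase genes each behaved differently. Camk4, a mainly nuclear kinase that phosphorylates CREB and is known from neurons and T cells, read 193, 218 and 184 in the Cre-ERT2 samples, against 1078, 1232 and 1107 in the ERT2 samples. The groups were far apart, with replicate 2 the highest array in both. The Cre-ERT2 mean of 198 ± 17.6 (SD, n = 3) was 17.4% of the ERT2 mean of 1139 ± 81.6 (SD, n = 3), a log2 difference of -2.52 (SE 0.0842), which ranked 16 among all falls. These Cre-ERT2 readings too lay below the lowest array median and are not shown to be above background, so the fall may be understated. Camk1d, a CaMKI isoform described in granulocytes and neurons, read 387, 421 and 396 in the Cre-ERT2 samples, against 669.5, 749 and 622 in the ERT2 samples. All Cre-ERT2 arrays were lower, at 59.0% of the ERT2 mean, with a difference of -0.76 (SE 0.0792) and a rank of 261 among falls.

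Camk2d, a subunit gene of the many-subunit kinase CaMKII, was higher in the Cre-ERT2 samples. It read 6415, 6487 and 6357 in the Cre-ERT2 samples, against 4768, 5072 and 4952 in the ERT2 samples. The groups did not overlap, and the Cre-ERT2 readings had the smallest relative spread of any member in either group (SD 0.0146 on the log2 scale). The Cre-ERT2 mean was 1.30 times the ERT2 mean, a difference of 0.38 (SE 0.0470), which ranked 572 among rises.

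**Figure D1:**
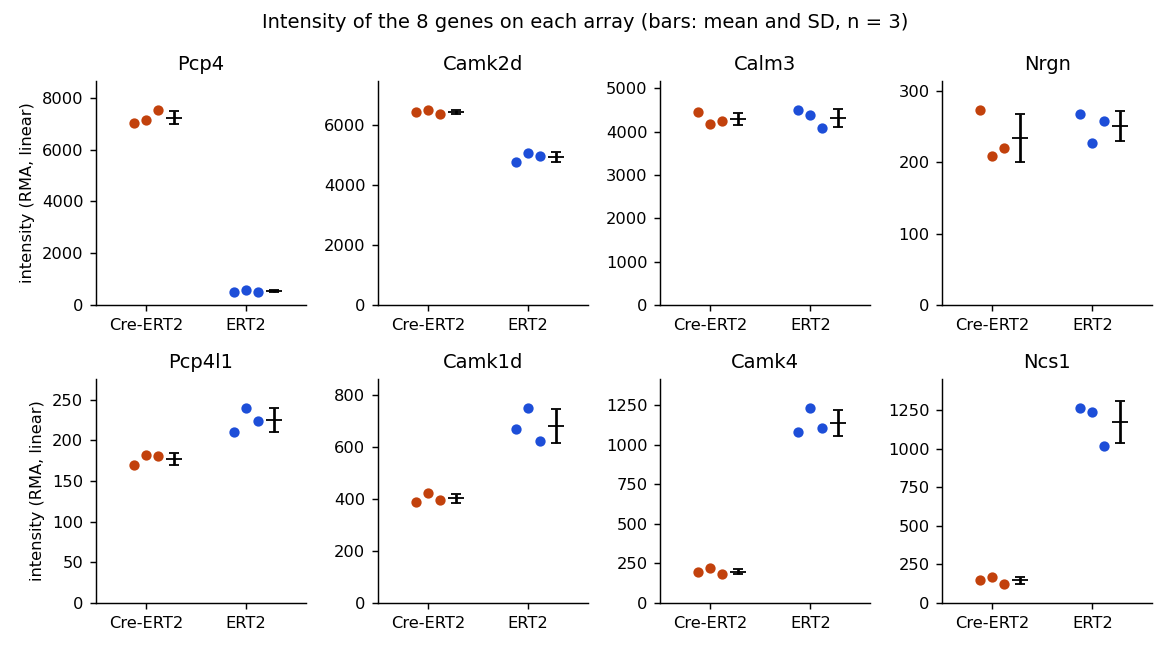
Intensity on the y axis (RMA values, linear scale from 0, each panel with its own scale) of the 8 genes in 3 Cre-ERT2 samples (left, orange) and 3 ERT2 samples (right, blue); points are arrays and bars give the mean and SD. Pcp4 and Camk2d were higher on every Cre-ERT2 array, Pcp4l1, Camk1d, Camk4 and Ncs1 were lower on every one, and the points of Calm3 and Nrgn overlapped.

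In order of their log2 differences the genes ran from Pcp4 (3.75) through Camk2d (0.38), Calm3 (-0.01), Nrgn (-0.11), Pcp4l1 (-0.34), Camk1d (-0.76) and Camk4 (-2.52) to Ncs1 (-3.0). The gap between Calm3 and Nrgn was smaller than the sum of their SEs, and that between Nrgn and Pcp4l1 only slightly larger than theirs, while each other gap was more than 2 times the sum of the SEs beside it. Of the 8 genes, 2 were past the threshold of the fit over all probe sets as higher and 4 as lower. Over all 19938 genes 4.38% were called higher and 3.72% lower. In 6 of the 8 the groups did not overlap, which held for 28.3% of all genes. These counts describe how the members were picked and are not evidence about them. The median difference of the 8 was -0.22, beside 0.02 over all genes. Pcp4l1 lost its call when ERT2 replicate 2 or 3 or any 1 Cre-ERT2 replicate was left out, which left 3 genes lower.

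**Figure D2:**
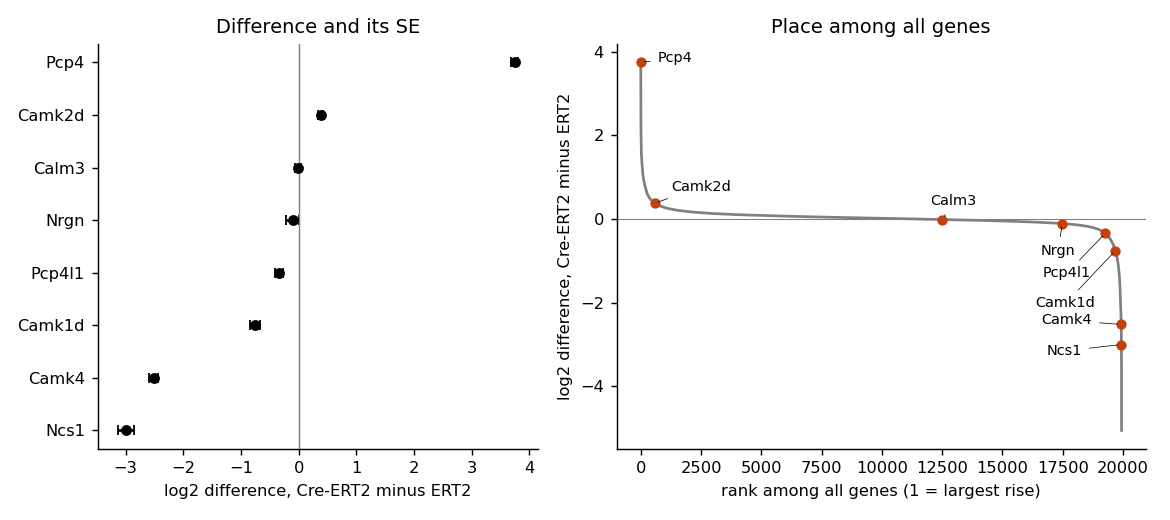
Left, log2 difference (Cre-ERT2 minus ERT2, x axis) of each of the 8 genes, with bars for the SE. Right, the differences of all 19938 genes on the y axis, sorted from the largest rise on the x axis (grey line), with the 8 genes marked; Pcp4 sits at the first place, Camk4 and Ncs1 near the low end, and Calm3 on the flat middle of the curve.

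Beside these members, 124 other genes of calcium and calmodulin signalling in 12 lists were measured, and these were tested gene by gene. The lists were chosen with earlier results of these data known, so the shares below are a description. Of the 124, 7 rose (5.65%) and 9 fell (7.26%), against 4.38% and 3.72% of all genes, and 108 did not pass. Their median difference was 0.03, against 0.02 over all genes. Leaving out ERT2 replicate 1 reduced the number that rose to 2, and leaving out ERT2 replicate 2 raised it to 9. Leaving out ERT2 replicate 3 or the first Cre-ERT2 replicate gave 4, and leaving out either of the other Cre-ERT2 replicates gave 3. With single arrays left out, 6 to 8 fell. The number of genes that fell was 14 after a further quantile normalization or cyclic loess, and with estimated array weights 11 rose and 15 fell.

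Most of the closest relatives of the members did not pass the test, which does not show that they were unchanged. Gap43, the other calmodulin-binding neuronal protein of the IQ-motif list, had mean intensities of 264.5 in Cre-ERT2 and 253.8 in ERT2 samples (difference 0.05, limma adjusted p = 0.87). Calm2, which encodes the same protein as Calm3, had 5140 in Cre-ERT2 and 5813 in ERT2 samples (difference -0.18, SE 0.0621, adjusted p = 0.208). Of the CaMKII relatives of Camk2d, Camk2g had 1790 in Cre-ERT2 and 1798 in ERT2 samples, and its difference of -0.01 (SE 0.0488) had an adjusted p of 0.973. Camk2a and Camk2b had differences of 0.00 and 0.10 and did not pass either. Camk2a read below the lowest array median on every array and is not shown to be above background. Among the other 10 measured kinases and kinase regulators 0 rose and 1 fell. That 1 was Camk1g, a further CaMKI isoform, with 260 in Cre-ERT2 and 331 in ERT2 samples (difference -0.35, SE 0.0706, adjusted p = 0.0393). Its readings in Cre-ERT2 replicates 2 and 3 lay below the lowest array median. Camk1g was no longer called when any single array was left out or with the replicate number as a block (adjusted p from 0.0614 to 0.156). Camkk2, the kinase that activates CaMKI and CaMKIV, had a difference of 0.07 (SE 0.0614, adjusted p = 0.657).

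Among the 11 other measured members of the neuronal calcium sensor family, 0 rose and 0 fell by limma (2 had an unadjusted p under 0.05), with differences from -0.22 for Hpcal1, a hippocalcin-like sensor, to 0.06. Hpcal1 had 264 in Cre-ERT2 and 309 in ERT2 samples (adjusted p = 0.26). Apart from Hpca and Hpcal1, these other members read below the lowest array median on every array. They are not shown to be above background, so a missing call for them says little. The 5 listed partners of NCS-1 gave 0 calls by limma in either direction (0 at an unadjusted p under 0.05), with differences from 0.01 to 0.08. These include Pi4kb, the lipid kinase it activates (difference 0.05, SE 0.0571), and Ric8a, an exchange factor for G proteins (difference 0.08, SE 0.0689). Drd2, Il1rapl1 and Kcnd2, the other listed partners, read below the lowest array median on every array and are not shown to be above background.

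Downstream of calmodulin, 1 of 14 calcineurin and NFAT genes rose and 1 fell. Rcan2, an inhibitor of calcineurin, read 166, 177 and 164 in the Cre-ERT2 samples, against 264, 279.5 and 241 in the ERT2 samples (difference -0.62, SE 0.0698, limma adjusted p = 0.00336). Nfatc2, a transcription factor that calcineurin releases into the nucleus, read 276, 254.5 and 280 in the Cre-ERT2 samples, against 218, 202 and 215 in the ERT2 samples (difference 0.35, SE 0.0595, adjusted p = 0.0202). The groups of both genes were separate. The Cre-ERT2 readings of Rcan2 and the ERT2 readings of Nfatc2 lay below the lowest array median. Nfatc2 lost its call without ERT2 replicate 1 or 3 or Cre-ERT2 replicate 1 or 3 (adjusted p from 0.06 to 0.0978). Ppp3ca, a catalytic subunit of calcineurin, had 2220 in Cre-ERT2 and 2644 in ERT2 samples and did not pass (adjusted p = 0.0799).

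In the CREB list, the factors that CaMKIV phosphorylates and their coactivators, 0 of 7 rose and 0 fell by limma (3 had an unadjusted p under 0.05), with a median difference of -0.01. Creb1 had 3371 in Cre-ERT2 and 3651 in ERT2 samples (difference -0.11, adjusted p = 0.432), and Crem, a related factor, had a difference of 0.33 (SE 0.105, adjusted p = 0.167). The coactivators Crtc3 (difference -0.20, SE 0.0508, limma adjusted p = 0.0803) and Crtc1 (-0.22, SE 0.0601, limma adjusted p = 0.0996) came nearer the threshold, as falls. Crem, Crtc1 and Crtc3 were the 3 with an unadjusted p under 0.05. Of 9 early genes that calcium can induce, 0 rose and 2 fell. Nr4a1, a nuclear receptor induced by antigen receptor signals, read 279.5, 276 and 282 in the Cre-ERT2 samples, against 374, 355 and 355 in the ERT2 samples (difference -0.37, SE 0.0471, adjusted p = 0.00571). Egr1, a zinc-finger factor, had 368 in Cre-ERT2 and 461 in ERT2 samples (difference -0.33, SE 0.0571, adjusted p = 0.0225). Egr1 lost its call without ERT2 replicate 1 or 2 or Cre-ERT2 replicate 1 or 3 (adjusted p from 0.0555 to 0.103).

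Most genes that move calcium did not pass the test. Of 12 genes of calcium entry and release, 2 rose and 0 fell by limma (5 had an unadjusted p under 0.05). Mcu, the pore of the mitochondrial calcium uniporter, read 1072, 1151 and 1055 in the Cre-ERT2 samples, against 724.5, 748 and 647 in the ERT2 samples (difference 0.63, SE 0.0715, adjusted p = 0.00359). Orai2, a store-operated channel subunit, had 2383 in Cre-ERT2 and 1998 in ERT2 samples (difference 0.25, SE 0.0489, adjusted p = 0.0316), and lost its call in 6 alternatives, 5 of them with 1 array left out (adjusted p from 0.0605 to 0.136). Those arrays were ERT2 replicates 1 and 3 and each of the Cre-ERT2 replicates. Orai1 and Orai3 had differences of 0.36 and 0.28 and did not pass (limma adjusted p = 0.0689 and 0.083). Itpr2, with a difference of -0.24, did not pass either (adjusted p = 0.236). Of 10 pumps and exchangers, 1 rose and 1 fell. Atp2a3, a pump that returns calcium to the endoplasmic reticulum in blood cells, read 3715, 3880 and 3669 in the Cre-ERT2 samples, against 2854, 2756 and 2549 in the ERT2 samples (difference 0.47, SE 0.0596, adjusted p = 0.00589). Atp2b2, a pump of the plasma membrane, had 326 in Cre-ERT2 and 460 in ERT2 samples (difference -0.50, SE 0.0591, adjusted p = 0.00437).

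The steepest measured fall outside the 8 genes in these lists was that of Marcksl1, a membrane protein that binds calmodulin and actin. It read 244, 211 and 251 in the Cre-ERT2 samples, against 1121, 972 and 1237 in the ERT2 samples. The arrays of the groups were far apart, and the difference was -2.23 (SE 0.108, limma adjusted p = 0.000114). The Cre-ERT2 readings lay below the lowest array median, so the same limit holds for the size of this fall. Its relative Marcks had 709.5 in Cre-ERT2 and 861.8 in ERT2 samples and did not pass (adjusted p = 0.152). In that list of 22 calmodulin-regulated proteins 2 rose and 1 fell by limma (6 had an unadjusted p under 0.05). The risen ones were Iqgap2, an IQ-motif scaffold (difference 0.55, SE 0.0826, adjusted p = 0.0115), and Adcy3, an adenylyl cyclase (difference 0.39, SE 0.0592, adjusted p = 0.0125). Both lost their calls when ERT2 replicate 1 or Cre-ERT2 replicate 2 or 3 was left out (adjusted p from 0.0502 to 0.063). Pde1b, a phosphodiesterase of the same list, fell just short, with 1820 in Cre-ERT2 and 1441 in ERT2 samples (difference 0.34, SE 0.0743, limma adjusted p = 0.0524).

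Of 20 further EF-hand proteins, 1 rose and 3 fell. S100a11, a small EF-hand protein of the S100 family, read 311.5, 309 and 333 in the Cre-ERT2 samples, against 887, 780.5 and 829 in the ERT2 samples. The 3 Cre-ERT2 arrays all lay below the ERT2 arrays, with a difference of -1.39 (SE 0.0651, limma adjusted p = 0.000104). S100a13, of the same family, had 514 in Cre-ERT2 and 687 in ERT2 samples (difference -0.42, SE 0.0497, adjusted p = 0.00436). Efhd1, a mitochondrial EF-hand protein, had 3607 in Cre-ERT2 and 4372 in ERT2 samples (difference -0.28, SE 0.0438, adjusted p = 0.0145). S100a6 had 256 in Cre-ERT2 and 207 in ERT2 samples (difference 0.30, SE 0.0521, adjusted p = 0.0214), and it read below the lowest array median on every array. Efhd1 lost its call without ERT2 replicate 1 or Cre-ERT2 replicate 2 or 3 and with the block (adjusted p from 0.0532 to 0.0882), and S100a6 without any array other than Cre-ERT2 replicate 3 (0.0516 to 0.0985).

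**Figure D3:**
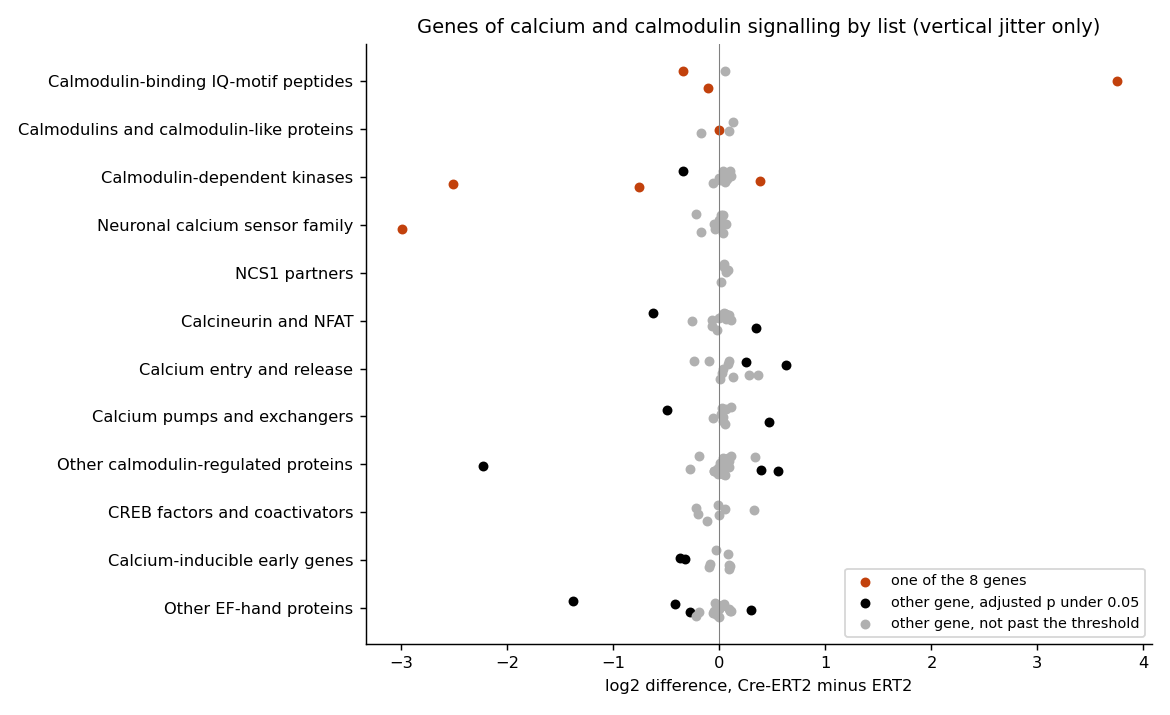
Log2 difference (Cre-ERT2 minus ERT2, x axis) of 132 genes in 12 lists of calcium and calmodulin signalling (rows), with the 8 genes in orange, other genes at limma adjusted p under 0.05 in black and the rest in grey. Pcp4 lies alone at 3.75, and Ncs1, Camk4, Marcksl1 and S100a11 lie below -1 while most genes sit near 0.

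Several of the 8 genes are best known from neurons, and Nrgn also from platelets, so markers of both were read. Of 8 neuron markers 2 rose and 0 fell. Syt1, a synaptic vesicle calcium sensor, read 388.5, 399 and 360 in the Cre-ERT2 samples, against 203, 207 and 189 in the ERT2 samples (difference 0.93, SE 0.063, limma adjusted p = 0.000381). Map2, a microtubule protein, had 326 in Cre-ERT2 and 251 in ERT2 samples (difference 0.38, SE 0.0567, adjusted p = 0.0114), and lost its call without any 1 of the Cre-ERT2 replicates (adjusted p from 0.0511 to 0.0578). The ERT2 readings of Syt1 and Map2 lay below the lowest array median. Snap25, Rbfox3, Gad1, Slc17a7, Nefl and Tubb3 did not pass. The summed intensity of the list was 1625 to 1701 in Cre-ERT2 and 1428 to 1484 in ERT2 samples. That sum includes Syt1 and Map2, and the median difference of the list was -0.06, so it does not show a rise across the list. Of 5 platelet markers 0 passed limma in either direction (0 at an unadjusted p under 0.05), with sums of 1018 to 1066 in Cre-ERT2 and 1010 to 1067 in ERT2 samples, and the defining gene Pf4 had 42.0 in Cre-ERT2 and 39.5 in ERT2 samples.

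Most markers of other blood and stromal cells did not pass the test. Of 8 myeloid markers 1 rose and 1 fell. Lyz2, which encodes lysozyme, rose with a difference of 1.40 (SE 0.108, adjusted p = 0.000654), and Itgam, an integrin chain, fell with a difference of -0.49 (SE 0.076, adjusted p = 0.0129). Itgam lost its call without ERT2 replicate 1 or Cre-ERT2 replicate 2 (adjusted p from 0.0558 to 0.0574), and it read below the lowest array median on every array. The sum of the list was 1767 to 1957 in Cre-ERT2 and 1315 to 1378 in ERT2 samples. Lyz2 alone had means of 932 in Cre-ERT2 and 352 in ERT2 samples, and the median difference of the list was -0.04. The higher sum therefore does not show a rise across the list. Of 7 T-cell markers 1 rose, Cd5, also a B-cell surface protein, with a difference of 0.56 (SE 0.0676, adjusted p = 0.0048), while Cd3e had 246.5 in Cre-ERT2 and 246.9 in ERT2 samples. The T-cell sums were 1464 to 1615 in Cre-ERT2 and 1334 to 1408 in ERT2 samples. They include Cd5, with means of 566 in Cre-ERT2 and 385 in ERT2 samples, and the median difference of that list was -0.0035. The NK-cell, erythroid and stromal lists had 0 of 6, 0 of 3 and 0 of 6 called by limma, also at an unadjusted p under 0.05. The summed intensity was 599.7 to 649.9 in Cre-ERT2 and 597.7 to 632.6 in ERT2 samples for the NK-cell list, 596.1 to 663.2 in Cre-ERT2 and 576.6 to 617.9 in ERT2 samples for the erythroid list and 1375 to 1487 in Cre-ERT2 and 1308 to 1475 in ERT2 samples for the stromal list. The part of any of these in the values of the 8 genes was not tested.

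The genes whose values ran most like those of Pcp4 and of Ncs1 over the 6 arrays were listed by Pearson's correlation of log2 values, as a description. The arrays form 2 separate groups, so a gene with a clear difference in the same direction gets a value near 1. Closest to Pcp4 were Nlrp1a, an inflammasome sensor (r = 0.99947), Tm7sf3, a membrane protein (0.99927), Cdh17, a cadherin (0.99908), Gimap4, a GTPase of lymphocytes (0.99893), and Zfp182, a zinc-finger gene (0.99889). Their own differences lay between 1.28 and 2.62, all below the 3.75 of Pcp4. Closest to Ncs1 were Gas7 (0.99968), Erg, an ETS factor (0.99939), Idh2, a mitochondrial dehydrogenase (0.9993), Bex3 (0.99921) and Galnt10, a glycosyltransferase (0.99913). Their differences lay between -0.33 and -1.99, each smaller in size than the -3.0 of Ncs1.

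**Figure D4:**
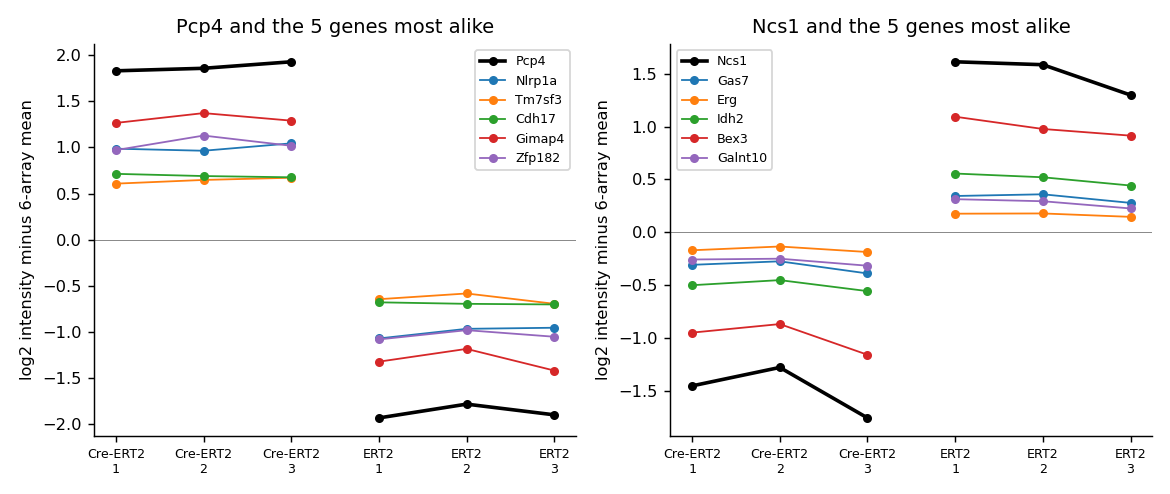
Log2 intensity minus the mean over 6 arrays (y axis) on each array (x axis, 3 Cre-ERT2 arrays left of 3 ERT2 arrays) for Pcp4 (left panel, black) and Ncs1 (right panel, black), each with the 5 genes of highest correlation; lines join arrays of a group only to guide the eye. Pcp4 and Ncs1 show the widest step between the groups in their panels.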

How the data were processed

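Total RNA of 6 samples, 3 Cre-ERT2 and 3 ERT2, was labelled with biotin and measured on Affymetrix arrays, as the labels' protocols state. The deposited intensities were made by the authors with RMA, per the submitters' processing notes; background correction, quantile normalization and combination of probes are what RMA does. The version, annotation and genome build used for it are not given in the sources here. The values run from 6.27 to 26714 and so are linear, and log2(intensity + 1) was used; RMA can hide a shift common to all genes.

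Of 35556 probe sets 21789 had 1 gene symbol, 1621 several and 12146 none; 21698 of the first matched the gene table (GRCm38.p6) and 0 symbols changed. A gene was read from its probe set with the highest mean log2 value. Control probe sets are not marked and were kept. The fit was limma 3.58.1 in R 4.3.3 (lmFit, eBayes, no covariates) over all probe sets, with Benjamini-Hochberg adjustment and a threshold of 0.05. Differences are Cre-ERT2 minus ERT2, SE is the moderated standard error of limma, and each adjusted p comes from the same fit. Named were the 8 members, Sox4, up to 4 called genes per list with the smallest p, and 5 genes most like Pcp4 and Ncs1; relatives and partners of the members and other uncalled genes were named after their values were seen. Members and lists were chosen with earlier results of these data known. The calling was tested on simulated data for Cre-ERT2 against ERT2, with 200 of 35556 probe sets changed. Alternatives were other pseudocounts, a filter, normalizations, variance models, array weights, the replicate block, probe-set averaging and each array left out.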

Additional observations from a re-analysis of the deposited data

How the results depend on the processing

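The fit over all probe sets called 1143 as higher and 1009 as lower. Estimated array weights gave 2415 higher and 1612 lower, with 11 of the 124 other calcium and calmodulin genes higher and 15 lower in place of 7 and 9; a further quantile normalization and cyclic loess each gave 14 of these lower. With 1 array left out, which also leaves fewer samples, the probe sets higher ran from 606 to 1319 and those lower from 654 to 883, and the list genes higher ran from 2 to 9 and those lower from 6 to 8. The cause of the other changes was not tested. Scaling alternatives moved the median of all genes by -0.0241 at the furthest (log2, cyclic loess). Sox4 kept its call, with differences from -1.42 to -1.25, and the differences of the 6 called members and of the called list and marker genes named in the text kept their sign in the alternatives run; Calm3, which was not called, turned in 3 of 17. The difference of Nrgn, also not called, ran from -0.22 to -0.03 in 16 alternatives. Values under the alternatives are not given for named genes that did not pass, other than Calm3 and Nrgn, or for the genes most like Pcp4 and Ncs1. Pcp4l1, Nrgn and the called genes Rcan2, Nfatc2, S100a6, Syt1 and Itgam were not among the brighter probe sets, so that filter gave no value for them.

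The replicate numbers were not shown to pair the samples: deviations from the group means correlated with 0.205 for number 1, 0.344 for number 2 and -0.0491 for number 3. With the replicate block 959 probe sets were higher and 877 lower, 8 and 7 of the list genes, and the members' counts stayed at 2 and 4. Camk1g, Efhd1 and Orai2 did not pass with that block.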
